A study of Rattus norvegicus with 12 samples.

Results

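The genes described here are 30 antioxidant defence and metal-binding genes, out of 10411 genes measured in rats after a thermal injury. They comprise metallothioneins, the NRF2 regulators, and the enzymes that make glutathione, reduce peroxides, dismute superoxide or handle haem and iron. Members were chosen by name, and each was measured by probe sets whose platform annotation names that gene and no other. Of the 30 genes, 25 had 1 probe set and 5 (Gclc, Keap1, Mafg, Tfrc and Txnrd1) had 2, which were averaged. All 30 entered every test, and no filter on low values was applied.

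The study compared burned rats with sham-treated rats on Affymetrix RAE230A arrays at days 1, 2, 4 and 7, with 3 samples a day and 12 in all. Each sample is a pair of RNAs, a sham control in channel 1 and a thermal injury in channel 2, and its value is a log2 ratio of the signals of both. The sources used here do not give the genotype, strain, age and tissue of the rats, the extent of the burn or the time point of the sham rats. Only the 9 samples of days 2, 4 and 7 are used, because identifiers of the 3 day 1 samples do not stand for the same probe sets. The order of the ratio is likely injury over sham, from the order of the channels, but it is not stated. Positive values are therefore read as higher after injury, and every direction below rests on that reading. Each array was centred on its own median over all probe sets, so 0 stands for the middle gene of that array. The labels do not say that samples came from separate animals, so p-values measure only the spread between these samples. Whether RNA per cell or the number of cells of a type differed cannot be told apart in such bulk RNA.

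Reactive oxygen species arise from respiration and from the oxidative burst of phagocytes. Superoxide dismutases turn superoxide into hydrogen peroxide, which catalase, glutathione peroxidases and peroxiredoxins remove. Glutathione peroxidases and peroxiredoxins, unlike catalase, do so with electrons that come from glutathione or thioredoxin and, in the end, from NADPH. The transcription factor NRF2 (gene Nfe2l2), held back by KEAP1, drives many of these genes through the antioxidant response element. Metallothioneins are small cysteine-rich proteins that bind zinc and copper, and their genes answer to metals through the factor MTF1, to glucocorticoids and to inflammatory cytokines. In the liver they are known as acute-phase genes.

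Mt2A had the highest member value at days 2 and 4, and its promoter is shown with that of its neighbour Mt1, since both genes are known for metal response elements upstream of their starts. The sequences are the 250 bases before each start, from RefSeq on the rat assembly GRCr8, both on the minus strand, written 5′ to 3′. Capitals mark the core of the metal response element, searched as TGCACNC or TGCGCNC on both strands.
Mt1, chr19:10832976-10833225: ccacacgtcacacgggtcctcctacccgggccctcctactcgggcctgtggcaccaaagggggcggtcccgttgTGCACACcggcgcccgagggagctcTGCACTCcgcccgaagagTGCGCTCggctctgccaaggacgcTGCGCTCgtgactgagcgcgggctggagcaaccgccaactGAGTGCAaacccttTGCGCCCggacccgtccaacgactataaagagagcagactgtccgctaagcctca
Mt2A, chr19:10838709-10838958: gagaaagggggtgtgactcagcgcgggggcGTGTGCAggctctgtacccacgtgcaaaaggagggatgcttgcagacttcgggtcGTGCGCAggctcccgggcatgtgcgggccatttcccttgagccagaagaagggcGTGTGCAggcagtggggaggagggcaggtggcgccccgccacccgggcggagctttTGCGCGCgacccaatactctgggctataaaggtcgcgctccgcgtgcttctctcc

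The starts of Mt1 and Mt2A lie 5733 bases apart. The Mt1 window held 6 matches to the metal core and the Mt2A window 4. Among all 33469 promoter windows of this length in the RefSeq table, 20.6% held at least 1 match and 0.0747% held 5 or more. Of the 30 members, 26 had a promoter entry, and Gsr, Hmox1, Prdx6 and Sod3 had none. A metal core was found for 6 of the 26, which were Mt1, Mt2A, Tfrc (3 matches), Gclm (2 matches), Keap1 and Prdx4. The core of the antioxidant response element, searched as TGACNNNGC on both strands, was found for 6 of the 26, which were Gclm, Gpx2, Mt1, Mt2A, Sod2 and Txnrd1. It was present in 10.1% of all windows, and no match in a member overlapped a metal core. A match is a run of letters and says nothing of binding.

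No member passed the test in any comparison. limma with Benjamini-Hochberg adjustment over all 10411 genes, at a threshold of 0.05, called 0 of 30 members at day 2, at day 4, at day 7, in each difference between days and in the F test over the 3 days, where 0% of all genes were called. For the mean of the 3 days it called 0 of 30 members and 0.0384% of all genes. A second limma fit, which let the variance prior follow brightness, also called 0 of 30 members. Its share of all genes was 0.134% at day 2, 0% at day 4, 0.048% at day 7, 0.307% for the mean of the days, 0% for day 4 minus day 2, 0.0288% for day 7 minus day 4, 0% for day 7 minus day 2 and 0.00961% for the F test. The number of arrays limits the precision: the median member's 95% interval reached 0.40 to either side of its daily mean, on the log2 scale. Each interval and p rests on a spread shared by the 3 days, not on the SD of a single day. A p above the threshold does not show that a gene was equal in burned and sham rats.

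At an unadjusted p under 0.05 in the first fit, 3 of 30 members stood out at day 2 (7.77% of all genes did), 4 at day 4 (8.81%), 5 at day 7 (10.9%) and 4 for the mean of the days (8.98%). For day 7 minus day 4 the count was 6 of 30 members and 11.7% of all genes. The member median was 0.13 at day 2, -0.02 at day 4 and -0.13 at day 7, where the medians of all genes lay between -0.01 and 0.01. The day 2 median was 0.044 without sample 2 of that day, 0.061 with the brightest probe set of a gene, 0.065 without dim probe sets and 0.083 after loess on brightness. The day 7 median was -0.23 without sample 1 of that day, -0.044 without centring and -0.065 after loess on brightness. The day 4 median was between -0.059 and 0.10 with 1 sample left out. At day 2, 19 of 30 members lay above 0, at day 4 14 and at day 7 8. Across all genes 50.8%, 51.0% and 48.4% lay above 0 on these days. Members are brighter than most genes, with 25 of 30 above the median brightness, and of all genes in the brighter range that holds 29 of the members, 40.4% lay above 0 at day 7.

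**Figure D1:**
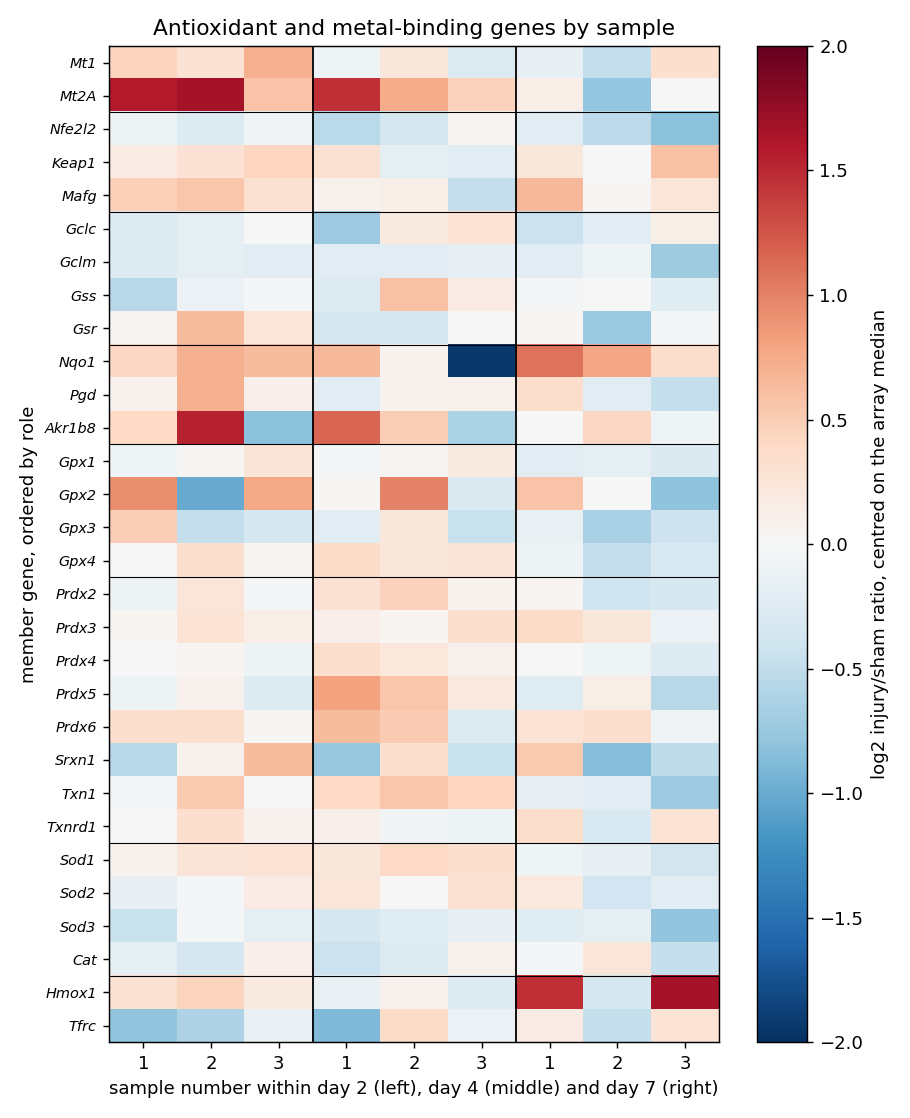
Log2 injury over sham ratios of the 30 members (rows, by role) in the 9 samples of days 2, 4 and 7 (columns), centred on the array median, with colour for the size and sign. Mt2A is above 0 in every sample of days 2 and 4, and Gclm and Sod3 are the members below 0 in all 9 samples.

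Metallothioneins carried the highest member value at day 2. Mt2A was at 1.58, 1.66 and 0.57 in samples 1, 2 and 3 of day 2. At day 4 its samples were at 1.47, 0.75 and 0.45, and at day 7 they were at 0.13, -0.77 and -0.01. Every sample of days 2 and 4 was above every sample of day 7, while the values of days 2 and 4 overlapped. The day 2 mean was 1.27 ± 0.61 (SD, n = 3), or 2.41-fold, with a 95% interval from 0.61 to 1.93 and an adjusted p of 0.392 by limma with Benjamini-Hochberg adjustment. At day 4 the mean was 0.89 ± 0.52 (SD, n = 3), or 1.85-fold, and the adjusted p by limma was 0.488. At day 7 the mean was -0.22 ± 0.48 (SD, n = 3), and its interval from -0.87 to 0.44 spans 0. Averaged over the 3 days, Mt2A was at 0.65 with a standard error of 0.17 (adjusted p = 0.346 by limma).

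Mt1, the neighbouring metallothionein, was at 0.44, 0.29 and 0.71 at day 2, at -0.08, 0.23 and -0.28 at day 4, and at -0.16, -0.48 and 0.33 at day 7. All day 2 samples were above 0 and above all day 4 samples, and later days held values on both sides of 0. Its day 2 mean of 0.48 ± 0.22 (SD, n = 3) had an adjusted p of 0.6 by limma. The whole-number signals behind the Mt1 ratios could be recovered from the decimals in lowest terms, and at day 2 they were 1963 against 1410, 1941 against 1736 and 2800 against 1719, injury first. In sample 2 of day 7 they were 583 against 773.

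The measured neutrophil markers, S100a8, S100a9 and Cxcr2, had values of both signs. The median of the 3 measured of 7 listed neutrophil markers was 1.69, -0.26 and 0.92 at day 2, 1.02, 2.14 and 0.48 at day 4, and 2.62, 0.98 and 1.57 at day 7. Of the 3 measured markers, 0 were brighter than the median gene. S100a9 was below 0 in 1 of 9 samples, sample 2 of day 2 at -0.39, and Cxcr2 ranged from -0.91 to 1.69. Their part in the metallothionein values was not tested.

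**Figure D2:**
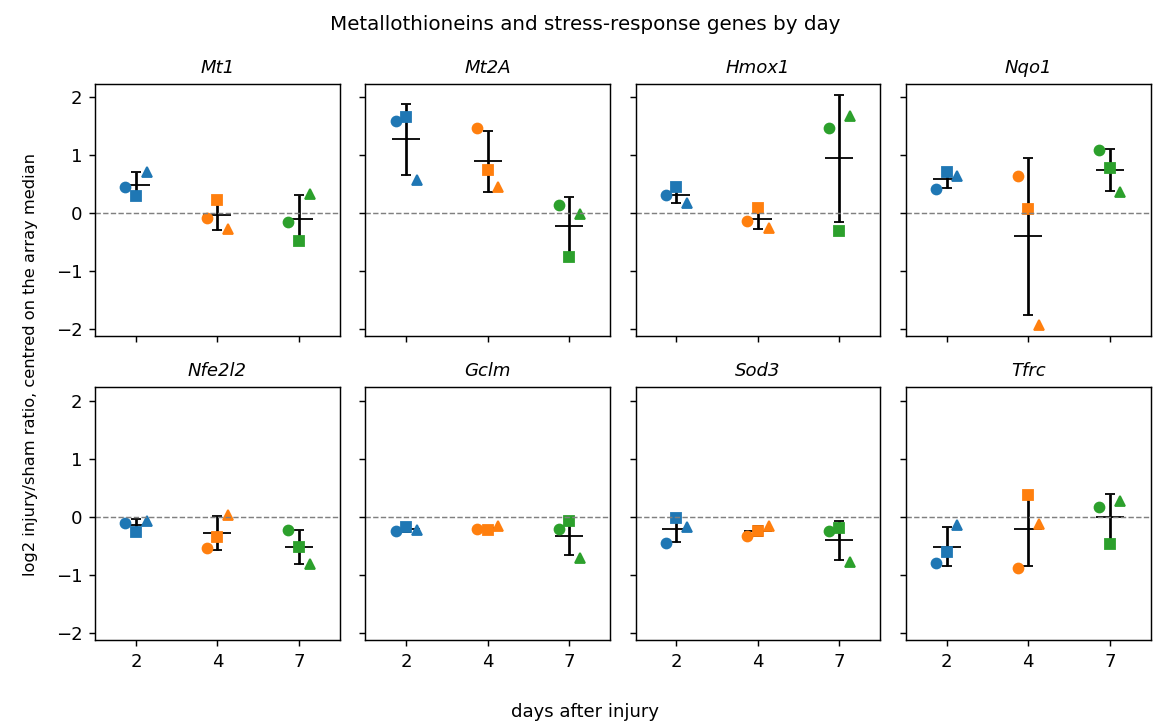
Log2 injury over sham ratio (y axis, centred on the array median) of 8 members by day after injury (x axis), with circles, squares and triangles for samples 1, 2 and 3 of a day and the bar for mean ± SD (n = 3). Mt2A lies above 0 in all samples of days 2 and 4 and near or below 0 at day 7, while Hmox1 at day 7 and Nqo1 at day 4 are split between samples.

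The NRF2 regulators did not share a direction. Nfe2l2 was at -0.11, -0.27 and -0.07 at day 2, at -0.54, -0.34 and 0.03 at day 4, and at -0.23, -0.53 and -0.82 at day 7. It was below 0 in 8 of 9 samples, the exception being sample 3 of day 4, and the days overlapped. The day 7 mean was -0.53 ± 0.29 (SD, n = 3), which had the lowest adjusted p of the members at that day, 0.332 by limma. The mean of the 3 days was -0.32 with an interval from -0.53 to -0.11 (adjusted p = 0.385 by limma). Keap1, which binds NRF2 and targets it for degradation, averaged 0.30 at day 2, -0.04 at day 4 and 0.27 at day 7. Its 2 probe sets were at 0.02 and 0.52 at day 7, so that mean describes neither. Mafg, a small partner of NRF2 on DNA, averaged 0.45 at day 2, -0.09 at day 4 and 0.31 at day 7. The 2 Mafg probe sets differed, at 0.83 and 0.06 for day 2, so the averaged value describes neither.

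Among the genes of glutathione synthesis, the modifier subunit of glutamate-cysteine ligase varied little between samples of days 2 and 4. Gclm was at -0.26, -0.18 and -0.22 at day 2, at -0.21, -0.23 and -0.16 at day 4, and at -0.22, -0.08 and -0.71 at day 7. All 9 samples were below 0, and sample 3 of day 7 was the lowest. The mean of the days was -0.25 with a standard error of 0.08, or 1.19-fold lower (adjusted p = 0.412 by limma). Gclc, the catalytic subunit of the same enzyme, ranged from -0.72 to 0.27, with 5 samples below 0 and 4 above. Its 2 probe sets differed in sign at day 2, at 0.05 and -0.34.

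Gss, which completes glutathione, was at -0.55, -0.12 and -0.03 at day 2 and had both signs at day 4. Gsr, which recycles oxidised glutathione with NADPH, was at 0.05, 0.63 and 0.24 at day 2, at -0.36, -0.32 and -0.01 at day 4, and at 0.02, -0.74 and -0.03 at day 7. Days 2 and 4 did not overlap, and they lay on opposite sides of 0. The difference of -0.53 between them had an adjusted p of 0.69 by limma.

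The NADPH and quinone enzymes were uneven between samples. Nqo1, a quinone reductase and a classical NRF2 target, was at 0.41, 0.71 and 0.63 at day 2, at 0.65, 0.07 and -1.93 at day 4, and at 1.08, 0.77 and 0.36 at day 7. It was above 0 in 8 of 9 samples, and sample 3 of day 4 stood far below the other 8. With that sample the day 4 mean was -0.40 ± 1.35 (SD, n = 3), and without it 0.36. The mean over the 3 days was 0.31, with an interval from -0.24 to 0.85. It was 0.56 without sample 3 of day 4 and 0.13 without sample 1 of day 4. Pgd, which makes NADPH in the pentose phosphate pathway, was above 0 in all day 2 samples, at 0.07, 0.70 and 0.11, and in 3 of the 6 later ones. Akr1b8, an aldehyde-reducing enzyme and a dim probe set, ranged from -0.82 to 1.54 and had the widest interval of all members.

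Glutathione peroxidases were mostly above 0 at day 4 and below 0 at day 7. Gpx4, which reduces lipid peroxides in membranes, was at -0.01, 0.32 and 0.05 at day 2, at 0.37, 0.23 and 0.25 at day 4, and at -0.11, -0.48 and -0.31 at day 7. The day 7 samples lay below all samples of days 2 and 4. Day 7 minus day 4 was -0.58 with a standard error of 0.18 (interval from -0.99 to -0.17, adjusted p = 0.309 by limma). Gpx1, the abundant cytosolic form, was at -0.09, 0.03 and 0.26 at day 2, at -0.03, 0.06 and 0.18 at day 4, and at -0.21, -0.20 and -0.28 at day 7. Its day 7 samples were close together and below all 6 earlier ones, with a mean of -0.23 ± 0.04 (SD, n = 3, adjusted p = 0.527 by limma). Gpx3, the secreted form, was at -0.14, -0.65 and -0.41 at day 7 and had both signs on the other days. Gpx2, known from the gut epithelium, had both signs on each day, with its highest value of 0.99 in sample 2 of day 4.

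**Figure D3:**
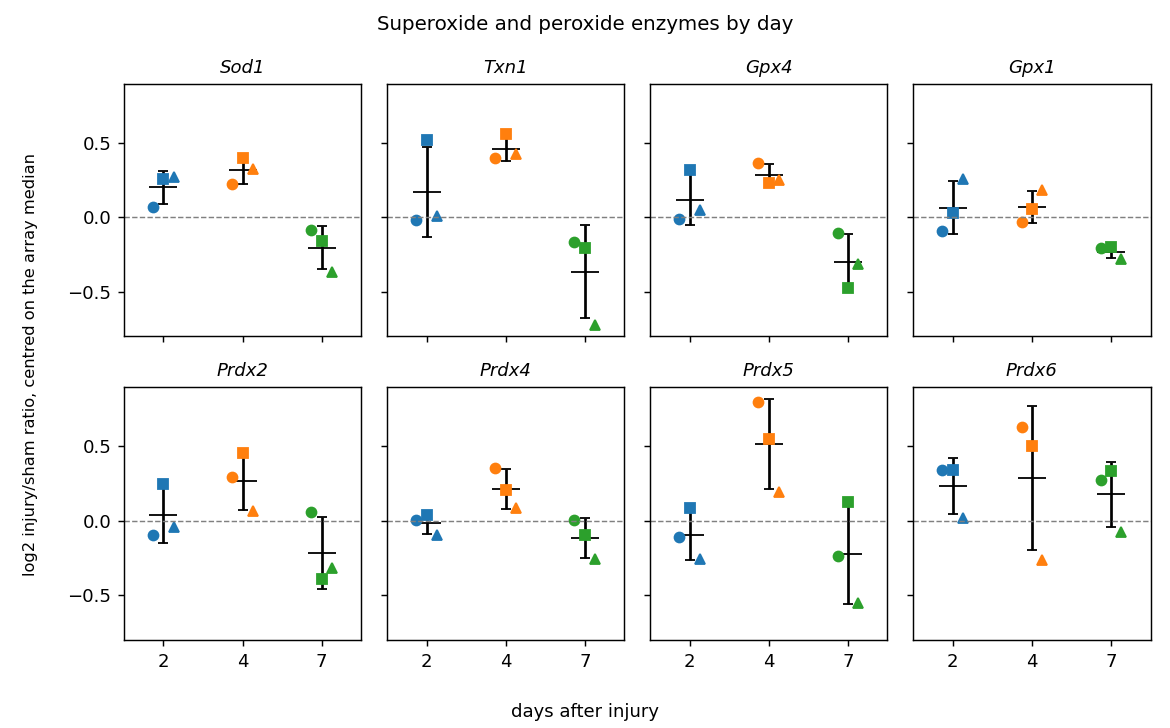
Log2 injury over sham ratio (y axis, centred on the array median) of Sod1, Txn1 and 6 peroxide-reducing enzymes by day after injury (x axis), with circles, squares and triangles for samples 1, 2 and 3 and the bar for mean ± SD (n = 3). Sod1, Txn1 and Gpx4 lie above 0 in all day 4 samples and below 0 in all day 7 samples, and no member passed the test.

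In the thioredoxin system the same order of days 4 and 7 was seen for Txn1, the small protein that carries electrons to peroxiredoxins. Txn1 was at -0.02, 0.52 and 0.01 at day 2, at 0.40, 0.56 and 0.42 at day 4, and at -0.16, -0.21 and -0.72 at day 7. Day 4 averaged 0.46 ± 0.08 (SD, n = 3), or 1.38-fold, and day 7 averaged -0.37 ± 0.31 (SD, n = 3). The difference of -0.83 with a standard error of 0.23 had the lowest adjusted p of any member for days 4 and 7, 0.282 by limma, and 0.110 with the variance trend. Txnrd1, which reduces thioredoxin, averaged 0.15 at day 2, -0.02 at day 4 and 0.10 at day 7. Its 2 probe sets differed in sign at day 7, at 0.35 and -0.15.

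Of the peroxiredoxins, Prdx5 had the highest day 4 value. It was at -0.11, 0.09 and -0.26 at day 2, at 0.80, 0.55 and 0.20 at day 4, and at -0.24, 0.13 and -0.55 at day 7. Day 4 lay above all samples of both other days, and day 7 minus day 4 was -0.74 with a standard error of 0.24 (adjusted p = 0.328 by limma). Prdx4, the form of the endoplasmic reticulum, was at 0.35, 0.21 and 0.09 at day 4, above all samples of days 2 and 7. Prdx2, a cytosolic form abundant in red cells, was at 0.29, 0.46 and 0.06 at day 4 and at 0.06, -0.39 and -0.32 at day 7. These day 4 and day 7 samples of Prdx2 met at 0.06 to 2 decimals, with day 7 the lower.

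Prdx3, the mitochondrial form, was above 0 in 8 of 9 samples, from -0.12 to 0.37, with a mean over the days of 0.15 and an interval from -0.03 to 0.33. Prdx6, which uses glutathione, was at 0.34, 0.34 and 0.02 at day 2 and had sample 3 below 0 on both later days. Srxn1, which repairs overoxidised peroxiredoxins, ranged from -0.85 to 0.63 with both signs on each day.

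The superoxide dismutases did not share a pattern. Sod1, the copper and zinc enzyme of the cytosol, was at 0.07, 0.26 and 0.27 at day 2, at 0.22, 0.40 and 0.32 at day 4, and at -0.09, -0.16 and -0.37 at day 7. All 6 samples of days 2 and 4 were above 0 and all 3 of day 7 were below. Day 7 minus day 4 was -0.52 with a standard error of 0.17 and an adjusted p of 0.315 by limma, and day 7 minus day 2 was -0.40 with an adjusted p of 0.66 by limma. Sod2, the manganese enzyme of mitochondria, was on both sides of 0 on each day.

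Sod3, the secreted enzyme of the extracellular matrix, was at -0.45, -0.02 and -0.18 at day 2, at -0.33, -0.24 and -0.16 at day 4, and at -0.24, -0.19 and -0.79 at day 7. All 9 were below 0, and the days overlapped. The mean of the days was -0.29 with a standard error of 0.09, or 1.22-fold lower (adjusted p = 0.409 by limma). Catalase (Cat), the peroxisomal enzyme, was below 0 in 6 of 9 samples, with a mean of -0.15 and an interval from -0.38 to 0.09.

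The haem and iron genes were split between samples. Hmox1, which breaks down haem, was at 0.30, 0.45 and 0.17 at day 2, at -0.15, 0.08 and -0.25 at day 4, and at 1.47, -0.32 and 1.67 at day 7. At day 7, samples 1 and 3 were above all other samples of the gene, and sample 2 was the lowest of the 9. The day 7 mean of 0.94 ± 1.09 (SD, n = 3), or 1.92-fold, had an interval from 0.17 to 1.71 and an adjusted p of 0.383 by limma. Both rest on a spread shared by the 3 days, and the SD was only 0.14 at day 2 and 0.17 at day 4. The interval thus understates the spread of day 7. Without sample 2 of day 7 the mean was 1.57 (adjusted p = 0.0981 by limma), without sample 1 it was 0.67 and without sample 3 it was 0.58.

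Markers of red cells, which hold haem, were measured for 5 of 9 listed genes. Their list median was -0.24, -0.08 and 0.53 at day 2, 0.81, 0.47 and 0.49 at day 4, and 0.92, 0.29 and 0.12 at day 7. The brightest of the list, Hbb and Alas2, were at -0.05, 0.29 and -0.04 and at 0.20, 0.53 and 0.12 at day 7. The part of red cells in the Hmox1 values was not tested. Tfrc, the transferrin receptor that takes up iron, was at -0.80, -0.61 and -0.15 at day 2, at -0.88, 0.37 and -0.12 at day 4, and at 0.16, -0.48 and 0.27 at day 7. Only the day 2 samples were all on one side of 0, with a mean of -0.52 ± 0.33 (SD, n = 3) and an interval from -1.11 to 0.07.

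**Figure D4:**
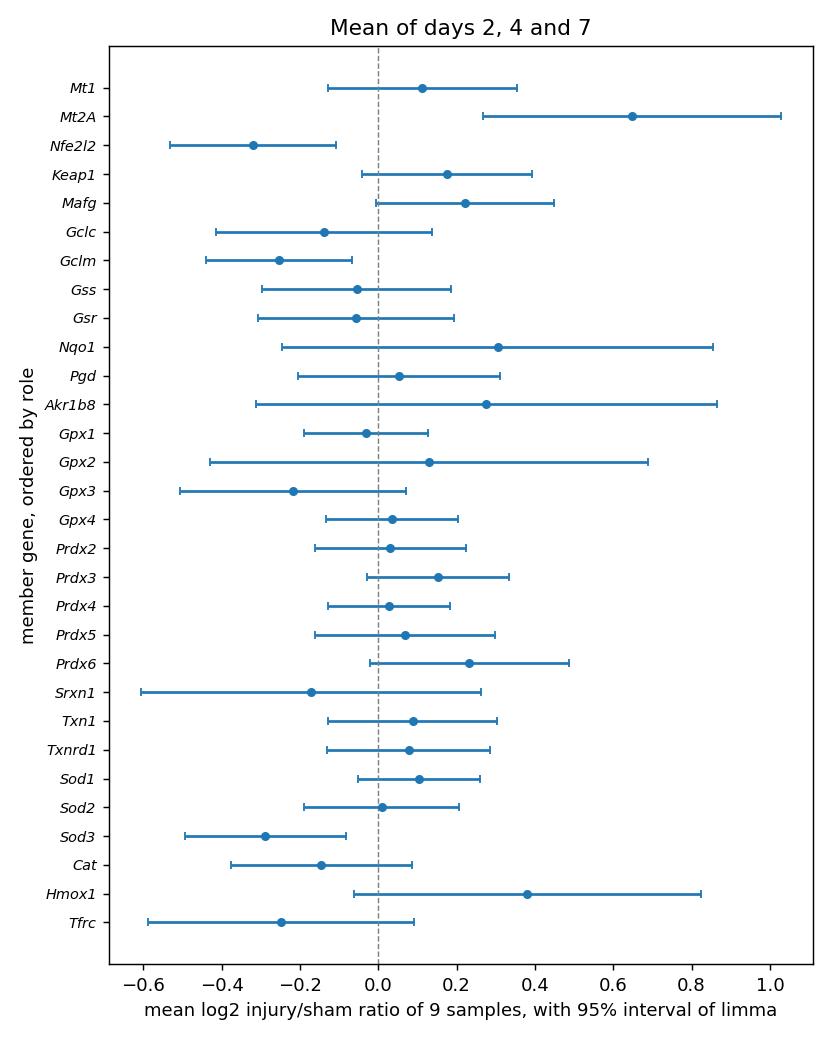
Mean log2 injury over sham ratio over days 2, 4 and 7 (x axis, points) with its 95% interval (lines) from limma for each of the 30 members (y axis). The intervals of Mt2A, Nfe2l2, Gclm and Sod3 do not reach 0 before adjustment, and none of the 30 passed after Benjamini-Hochberg adjustment over all genes.

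Signs shared by all samples of a day were counted beside their share among all genes and among bright genes. Bright genes are the 6070 with a probe set at or above the median brightness, and they hold 29 of the members. They are not matched to the members, whose median brightness was 13.63 against 10.77 for all genes. At day 2, 12 of 30 members had all 3 samples above 0, against 13.8% of all genes and 15.5% of bright genes. All 3 were below 0 for 5 of 30, against 13.1% and 13.4%. The 12 were Mt1, Mt2A, Keap1, Mafg, Gsr, Nqo1, Pgd, Prdx3, Prdx6, Txnrd1, Sod1 and Hmox1. Of these, Keap1, Mafg and Txnrd1 met the rule as averages of 2 probe sets, of which 1 was below 0 in a sample. Those values were -0.06 for Keap1 and -0.18 for Txnrd1 in sample 1, and -0.11 for Mafg in sample 3. With the brightest probe set of a gene, Mafg and Txnrd1 were no longer among them. At day 4, 8 of 30 were above 0 in all samples, against 18.3% of all genes and 22.4% of bright genes. All day 4 samples were below 0 for 3 of 30, against 16.2% and 17%. Peroxiredoxins 2 to 5 with Txn1, Gpx4, Sod1 and Mt2A made up the 8. At day 7, 2 of 30 were above 0 in all samples, against 15.6%, and 9 of 30 below, against 18%. The 2 were Mafg and Nqo1, and the 9 were Nfe2l2, Gclm, Gss, Gpx1, Gpx3, Gpx4, Txn1, Sod1 and Sod3. Mafg met the rule only as an average, since each of its 2 probe sets had day 7 samples below 0. Among bright genes, 12.6% were above 0 in all day 7 samples and 25.0% were below. Over all 9 samples, 0 of 30 were above 0 throughout, against 0.48% of all genes and 0.593% of bright genes. Gclm and Sod3, 2 of 30, were below 0 throughout, against 0.547% and 0.725%.

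Between days, 8 of 30 members had every day 7 sample below every day 4 sample, against 11.1% of all genes and 16.3% of bright genes. They were Mt2A, Gpx1, Gpx4, Prdx2, Prdx4, Prdx5, Txn1 and Sod1. All 8 were in the brightest class, whose signals were mostly too large to be recovered. That class held 10 members, and Prdx6 and Cat in it did not meet the rule. The share among all genes of that class was not computed, so brightness and membership cannot be told apart here. The reverse order held for 0 of 30, against 8.58% of all genes and 7.91% of bright genes. Day 7 was lower than day 2 throughout for 6 of 30, against 7.15% of all genes and 9.69% of bright genes. It was higher for 0 of 30, against 5.48% and 4.4%. Day 4 was lower than day 2 throughout for 4 of 30 (Mt1, Mafg, Gsr and Hmox1), against 7.03% of all genes and 7.78% of bright genes. For Mafg, 1 of its 2 probe sets overlapped between these days. Day 4 was higher for 2 of 30 (Prdx4 and Prdx5), against 7.38% and 8.86%. Gpx4, Txn1 and Sod1 were the 3 of 30 above 0 in all day 4 samples and below 0 in all day 7 samples. The share was 4.47% of all genes and 6.87% of bright genes. These order counts carry no test, and genes within an array are not independent.

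The order of days 4 and 7 depends in part on scaling. Without centring, 5 members had every day 7 sample below every day 4 sample (Mt2A, Gpx1, Gpx4, Txn1 and Sod1). After loess on brightness 4 did (Mt2A, Gpx4, Txn1 and Sod1). The share of all genes in this order was computed for the centred values only, so these 2 counts have no background beside them. The 3′ minus 5′ difference of control probe sets, a sign of RNA quality, was taken on the log2 ratios. It therefore compares the injury RNA with the sham RNA of a sample. For actin it was -0.79, -0.31 and -0.06 at day 2, -0.35, 0.38 and 0.23 at day 4 and -0.88, -0.44 and -0.88 at day 7. For Gapdh it was -0.42, -0.19 and 0.11 at day 2, 0.14, 0.31 and -0.08 at day 4 and -0.39, -0.21 and -0.80 at day 7. The part of RNA quality in the order of days 4 and 7 was not tested.

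Sample by sample, the member median was 0.01, 0.25 and 0.09 at day 2, 0.06, 0.19 and 0.01 at day 4, and 0.01, -0.21 and -0.25 at day 7. Sample 1 of day 7 had 17 of 30 members above 0, while samples 2 and 3 had 7 and 8. The day 7 members below 0 lay mostly in samples 2 and 3.

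Other genes of the same pathways were taken from lists, and no gene of them passed limma's test in any comparison in the first fit. Of 37 further redox genes, 22 lay above 0 at day 2, 21 at day 4 and 9 at day 7 of the 37. A day 7 majority below 0 was thus seen outside the 30 members too. It was also seen among bright genes at large, of which 40.4% lay above 0 at day 7. Of the 37 redox genes, 30 were brighter than the median gene. The 2 with the smallest p for the mean of the days were Aldh3a1, an aldehyde dehydrogenase, at -0.70, and Ephx1, an epoxide hydrolase, at -0.36 (adjusted p = 0.336 and 0.380 by limma). Of 26 further metal genes, 21 lay above 0 at day 2, 8 at day 4 and 17 at day 7. Lcn2, which withholds iron from bacteria, averaged 1.19 over the days with a standard error of 0.20, and it had an adjusted p of 0.133 by limma in the first fit and 0.0236 with the variance trend. Atp7a, a copper transporter, averaged 1.30 (adjusted p = 0.336 by limma). Of 11 genes of enzymes that make reactive oxygen species, 3 lay above 0 at day 2, 5 at day 4 and 7 at day 7. Nox4, an NADPH oxidase, averaged -0.58, and Cyba, a membrane subunit of these oxidases, averaged -0.46 (adjusted p = 0.441 and 0.488 by limma).

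Markers of several cell types were read in the same samples. All 10 listed hepatocyte markers were measured and 8 were in the brightest class, whose signals were mostly too large to be recovered. The hepatocyte markers lay above 0 for 9 of 10 at day 2 and below 0 for 9 of 10 at both later days, with medians of 0.14, -0.15 and -0.13 at days 2, 4 and 7. By sample the list median was 0.00, 0.25 and 0.20 at day 2, -0.26, -0.11 and 0.01 at day 4, and -0.19, -0.10 and -0.10 at day 7. Their part in the member medians was not tested. The median of 12 exocrine pancreas markers was 0.03, 2.95 and 1.56 in the day 4 samples and between -0.24 and 0.32 on the other days. In sample 1 of day 4 the single markers were uneven. Pnliprp1 at 2.75, Cpa1 at 2.23, Prss2 at 1.40, Ctrb1 at 0.69, Amy2a3 at 0.27 and Cela1 at 0.10 were above 0. Cel at -0.72, Clps at -0.62, Cpb1 at -0.45, Pnlip at -0.43, Cela2a at -0.25 and Prss1 at -0.05 were below. Of the 12 markers, 2 were brighter than the median gene. Cela1, the brightest of the list, was at 0.10, 0.23 and 0.20 at day 4 and between -1.20 and -0.48 on the other days. Its mean over the days was -0.46, with an adjusted p of 0.154 by limma in the first fit and 0.0327 with the variance trend. Cpb1 ranged from -0.62 to 1.99. The part of pancreas RNA in the day 4 values was not tested. The median of 8 measured macrophage markers lay between -0.34 and 0.45 and that of 8 stellate cell markers between -0.45 and 0.24. Macrophage markers lay above 0 for 4 of 8 at day 2, 8 of 8 at day 4 and 4 of 8 at day 7. Their day 4 mean was above day 2 for 8 of 8, and day 7 was below day 4 for 7 of 8. Stellate cell markers lay above 0 for 6, 3 and 1 of 8 at days 2, 4 and 7, and day 7 was below day 2 for 8 of 8. The part of these cells in the member values was not tested. The brightest of these markers were Clec4f, from -0.35 to 0.70, and Lyz2, from -0.97 to 0.59, for macrophages. For stellate cells they were Col3a1, from -0.53 to 0.30, and Col1a1, from -1.05 to 0.26. Correlations across genes were between -0.00487 and 0.164 for arrays of the same day.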

How the data were processed

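The authors deposited a log2 ratio of 2 array signals for each probe set and sample. Scaling and software were not given in the sources used here. Of 15923 probe sets, 57 controls were left out. Of the rest, 12783 had 1 gene symbol in the platform annotation, 312 had several and 2771 had none, which gave 10411 genes after averaging. Arrays were centred on their medians, from -0.127 to 0.161. The test was lmFit followed by eBayes from limma 3.58.1 under R 4.3.3 (1 mean per day over 9 arrays, leaving 6 degrees of freedom), adjusted after Benjamini-Hochberg. A run on simulated data gave each changed gene the same shift on all arrays. It therefore did not cover differences between days or the F test.

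Whole-number signals were recovered from the ratios by continued fractions (tolerance 1e-09, numbers up to 20000), which gave between 94% and 94.7% of values. Ratios shifted at random gave between 10.7% and 13% at that limit, so larger signals serve only as an estimate of brightness, the median log2 signal of a probe set.

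All 30 members are named. Of the redox, metal and oxidant-producing lists, genes past the threshold and the 2 with the smallest p for the mean of the days are named. Cell type markers are given by count and range with the 2 brightest of a list, except for hepatocytes, where 8 share the brightest class. Other markers were named after their values were seen. Members and lists were chosen with earlier results of these data known. Same-numbered samples did not deviate together (0 of 9 pairs correlated above 0.1), so no block was used. Alternatives were a fit on single probe sets, the brightest probe set of a gene, no centring, loess on brightness, leaving out dim probe sets, a variance trend, array weights, the block and leaving out each sample. Day 1 was not analysed here.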

Additional observations from a re-analysis of the deposited data

Results flagged for a closer look

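In 5 comparisons of a member between days, every sample of one day lay above 0 and every sample of the other below. Each difference was tested with limma and none passed after Benjamini-Hochberg adjustment. Day 7 minus day 4 was -0.83 for Txn1, -0.58 for Gpx4 and -0.52 for Sod1. Day 7 minus day 2 was -0.40 for Sod1. Day 4 minus day 2 was -0.53 for Gsr. The order of Txn1, Gpx4 and Sod1, day 4 above 0 and day 7 below, held for 4.47% of all genes and 6.87% of bright genes. Shares for the other orders were not computed, so the count of 5 has no background beside it.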

How the results depend on the processing

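No member was called under any of the 8 alternatives or when any 1 of the 9 samples was left out. The lowest adjusted p of a member by limma was 0.0957, for Mt2A at day 2 with dim probe sets left out. With a replicate block by sample number, 0 members and 0 genes were called in each comparison. Genes called for the mean of the days numbered 4 in the first fit, between 0 and 34 under the alternatives and between 0 and 3 with 1 sample left out. No member value reversed where both values exceeded their standard errors, and 162 of 3353 differed in sign from the first fit where they did not. With 1 sample left out, the member median was between 0.044 and 0.18 at day 2, -0.059 and 0.10 at day 4, and -0.23 and -0.088 at day 7. The counts by sign and order, whose alternatives were chosen after seeing the data, moved more. Leaving out a sample can only keep or raise such a count, because fewer samples then have to meet the rule. The low end of these ranges is therefore no check, and shares of all genes were not computed with a sample left out. Members above 0 in every day 2 sample numbered 12, 11 of 29 without dim probe sets, and between 12 and 16 with 1 sample left out. Members above 0 in every day 4 sample numbered 8, 5 after loess on brightness, and between 8 and 13 with 1 sample left out. Members below 0 in every day 7 sample numbered 9, and between 9 and 17 with 1 sample left out, the 17 being without sample 1 of day 7. Members with day 7 below day 4 throughout numbered 8, 5 without centring and 4 after loess, the last 2 counts without a share of all genes. After loess the members below 0 in all 9 samples were Nfe2l2 and Sod3, and without centring Gclm was there too. Without centring, 59.2% of all genes lay above 0 at day 7, against 48.4% with it, and 10 of the members did, against 8.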
